A study of Mus musculus with 6 samples.

Results

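Adhesion junctions hold neighbouring cells together, and 10 genes that build them were followed in ribosome footprints of mouse ID8 cells. They are the classical cadherins Cdh1 and Cdh2, the catenins Ctnnb1, Jup, Ctnna1 and Ctnnd1, the desmosomal plaque proteins Dsp and Pkp2, and the tight junction proteins Tjp1 and Ocln. They were chosen by symbol, through the Ensembl identifier that GENCODE M21 pairs with each, from a table of 53465 genes. ID8 is a line derived from mouse ovarian surface epithelium, the thin mesothelial layer that covers the ovary. The 3 libraries labelled KO came from cells given a guide RNA against Nat10, whose product acetylates cytidines of RNA, and the 3 labelled WT from cells given a control guide. All 6 had cycloheximide at 100 µg/mL for 2 minutes before harvest, and the labels name no other agent for either group. The sources used here do not state whether the KO cells were a clone or a pool, nor whether replicates were separate cultures. The p-values therefore measure the spread between libraries, which may be technical.

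A cadherin spans the membrane and binds a cadherin of the next cell, while its tail holds β-catenin or its close relative plakoglobin, the product of Jup. α-catenin, the product of Ctnna1, joins that complex to actin, and p120-catenin, the product of Ctnnd1, binds nearer the membrane and keeps the cadherin at the surface. Desmoplakin and plakophilin 2, from Dsp and Pkp2, form with plakoglobin the plaque that ties desmosomes to intermediate filaments, and ZO-1 and occludin, from Tjp1 and Ocln, belong to tight junctions. β-catenin also carries Wnt signals to the nucleus. Mesothelial cells, the ovarian surface among them, are known for N-cadherin, the product of Cdh2, where most epithelia use E-cadherin, the product of Cdh1.

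Total counts were 2234305 to 3126208 in the KO libraries and 1687466 to 2148715 in the WT libraries. Levels are given as CPM, counts scaled to a common library size with trimmed-mean (TMM) factors, and fold changes as log2 of KO over WT. Counts of genes also peaked at 42, 46 and 60 in the KO libraries and at 15, 21 and 39 in the WT libraries, and a count divided by this modal count is called molecule equivalents. Counts below the modal count of their library are pointed out for some genes only. Dsp, Zeb2 and Gsk3a, among others, also have such counts. Nat10 itself had counts of 315, 133 and 445 in KO and 168, 128 and 292 in WT (log2 fold change -0.074, SE 0.48), so its footprints did not set the groups apart, and KO below stands for the library label. All 8 markers fixed for ovarian surface epithelium and mesothelium had a count in some library, but Krt7 and Lrrn4 had none in KO. The list summed to 4179.8 to 4827 CPM in KO and 5861 to 6331 CPM in WT. Of the 6 tested, edgeR called Msln (mesothelin) higher in KO (adjusted p = 0.0145) and the keratins Krt18 and Krt19 lower (0.0195 and 0.0044), while Krt8, Wt1 and Upk3b were not called. Of 9 leukocyte markers 5 were at 0 in every library, and the list summed to at most 1.55 CPM in KO and 0 CPM in WT. The 5 endothelial markers summed to at most 1.86 CPM in KO and 5.9961 CPM in WT, with Emcn at 0 throughout. The 5 fibroblast markers summed to 4.96 to 18.4 CPM in KO and 42.8 to 85.4 CPM in WT. Of that list only Col1a1 could be tested, with counts of 1, 38 and 6 in KO and 120, 171 and 74 in WT, and it was not called. Pdgfra had 14, 5 and 1 in KO and 8, 0 and 0 in WT. In KO Col1a2 had 0, 0 and 6 and Lum had 0, 0 and 3, and both were at 0 in every WT library. Thy1 was at 0 throughout. The part of these markers in the results below was not tested.

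β-catenin, α-catenin, plakoglobin, ZO-1 and N-cadherin were well covered by ribosome footprints in both groups, E-cadherin and occludin were near or at 0, and no gene of the 10 was called different. Of the 10 genes 8 had enough counts to test, and edgeR's quasi-likelihood test called 0 of them at an adjusted p under 0.05, where it called 33 of 8200 genes tested, or 0.402%. At an unadjusted p under 0.05 it had 0 of the 8, against 6.49% of all genes tested. DESeq2 and limma-voom also called 0, with 4 of 9 and 2 of 8 at an unadjusted p under 0.05, against 8.73% and 8.23% of all genes they tested. With DESeq2 these members were Cdh1, Cdh2, Ctnnb1 and Ctnnd1, and with limma-voom they were Ctnnb1 and Ctnnd1. At the adjusted threshold DESeq2 called 2.5% of the genes that it gave an adjusted p and limma-voom called 0.524%. The median log2 fold change of the 8 was -0.28, with 6 negative, and the median of all genes tested was -0.016. For 4 genes, Ctnnb1, Ctnna1, Jup and Tjp1, the 95% interval lay within a 2-fold change either way, which held for 9.44% of all genes tested. In a bulk library fewer cells that make a protein and less translated mRNA per cell cannot be told apart.

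**Figure D1:**
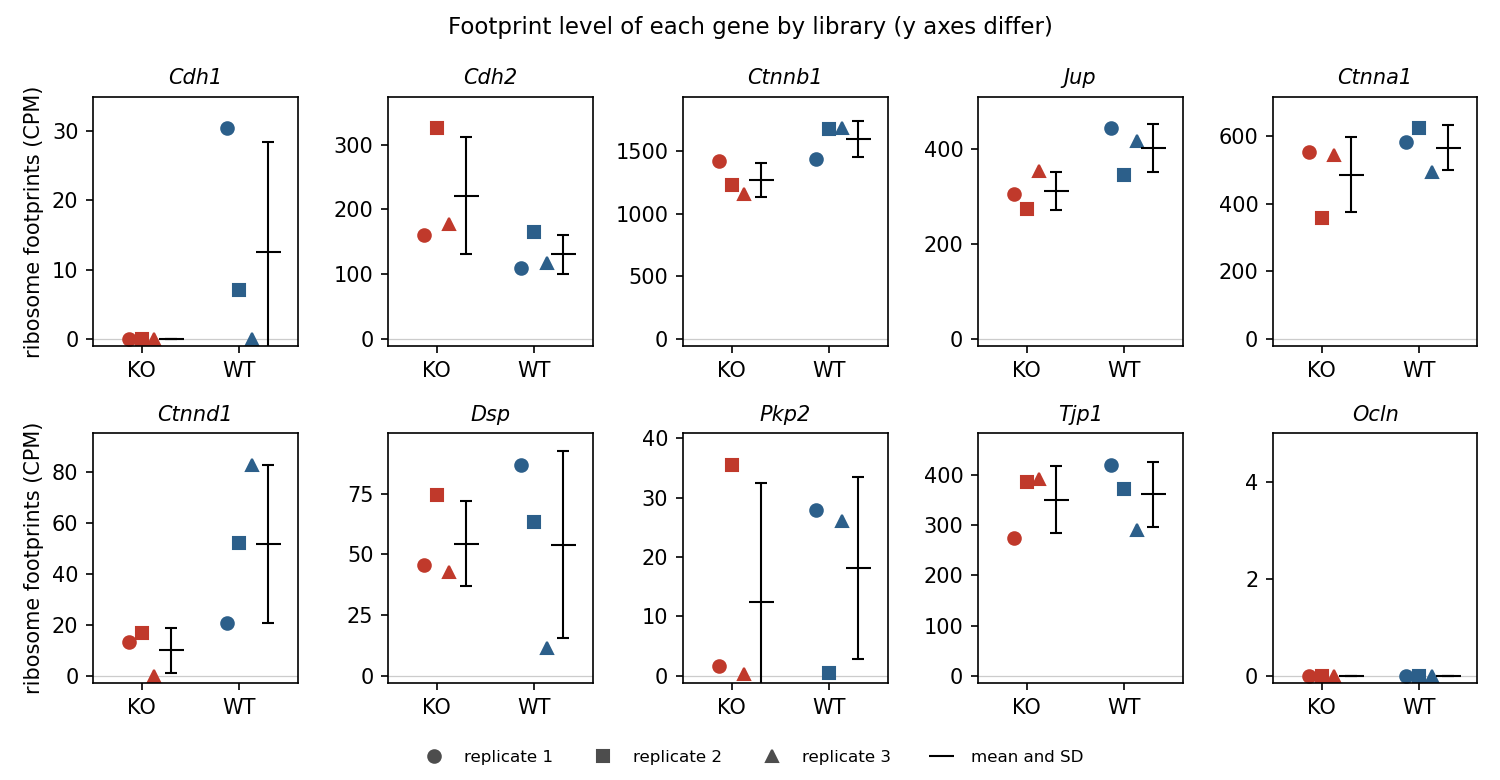
Ribosome footprints (CPM, linear axes that differ between panels) of the 10 genes in the KO and WT libraries, with symbols for replicate numbers and black bars for the mean and SD of 3 libraries (bars that pass below 0 are cut at the axis). Ctnnb1 lies at 1160.0 CPM or above in every library, Cdh1 has counts in 2 WT libraries only, and Ocln is at 0 in all 6.

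Among the classical cadherins listed here, N-cadherin had the most footprints in these cells. Cdh2 (ENSMUSG00000024304, minus strand of chromosome 18, 16588877 to 16809246 in GRCm38) stood at 160 (159.95), 325 and 178 CPM in the KO libraries and at 109 (109.45), 165 and 117 CPM in the WT libraries. KO replicate 2 was the highest library and KO replicate 1 lay just under WT replicate 2, so the groups overlapped, with 2 of 3 KO libraries above every WT library. The means were 221 ± 90.8 CPM in KO and 131 ± 30.3 CPM in WT (SD, n = 3 each). The log2 fold change was 0.76 (SE 0.36, 95% interval -0.0065 to 1.52, edgeR adjusted p = 0.776), so the interval reached from no change to nearly 3-fold higher (2.87-fold). Without KO replicate 2 the estimate was 0.38.

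E-cadherin was barely detected. Cdh1 (ENSMUSG00000000303, plus strand of chromosome 8, 106603351 to 106670246) had counts of 0, 0 and 0 in KO and 50, 14 and 0 in WT. Both WT counts are small on the molecule scale, at 3.33 and 0.667 molecule equivalents. It had too few counts for the main test, and no fold is given because the KO libraries held none. With each count taken as a separate molecule, a count of 0 allows up to 1.17, 1.28 and 0.931 CPM in the KO libraries. In WT replicate 3 it allows up to 1.73 CPM, counting error only. The modal counts of these libraries, at 42, 46, 60 and 39, far exceed that floor of 3 counts. The bound may therefore be too low. Without the count filter edgeR gave an adjusted p = 0.575 for Cdh1, and DESeq2 gave 0.278. Of the other Cdh genes listed only Cdh3, P-cadherin, had regular counts, at 107 ± 26.4 CPM in KO and 48.8 ± 24.1 CPM in WT (SD, n = 3 each). Every KO library of Cdh3 was above every WT library, a pattern of 6.94% of all genes tested, and its log2 fold change was 1.13 (SE 0.52, edgeR adjusted p = 0.737).

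The log2 ratio of Cdh1 to Cdh2 counts, with 0.5 added to each, could be read in the WT libraries with Cdh1 counts, where it was -1.84 in replicate 1 and -4.51 in replicate 2. In the 3 KO libraries and WT replicate 3, with Cdh1 at 0, the ratio is set by the 0.5 added and by the Cdh2 count. Those libraries therefore have no order among themselves, and no difference between KO and WT is read from this ratio.

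Among the catenins β-catenin had the most footprints of all 10 genes. Ctnnb1 (ENSMUSG00000006932, plus strand of chromosome 9, 120929216 to 120960507) stood at 1420.4, 1226 and 1160.0 CPM in the KO libraries and 1434, 1674 and 1683 CPM in the WT libraries. Every KO library was below every WT library, a pattern of 7.93% of all genes tested, although KO replicate 1 and WT replicate 1 were nearly level. The means were 1269 ± 135 CPM in KO and 1597 ± 141 CPM in WT (SD, n = 3 each), a log2 fold change of -0.33 (SE 0.16, 95% interval -0.68 to 0.019, edgeR adjusted p = 0.830). That interval leaves room for a level in KO from 0.623 to 1.01 times that in WT. Of the coding bases of Ctnnb1, 12.1% lie in exons that Ulk4 has on the opposite strand, and the sources used here do not state the strand setting of the counting.

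Plakoglobin, the β-catenin relative that serves both adherens junctions and desmosomes, was at a lower level. Jup (ENSMUSG00000001552, minus strand of chromosome 11, 100368958 to 100397763) had 307, 275 and 356 CPM in KO and 445, 346 and 418 CPM in WT. The groups overlapped only through WT replicate 2, which lay under KO replicate 3. Its mean was 312 ± 40.4 CPM in KO and 403 ± 51.3 CPM in WT (SD, n = 3 each), and the change on the log2 scale was -0.37 (SE 0.23, 95% interval -0.87 to 0.13, edgeR adjusted p = 1.0). The log2 ratio of Jup to Ctnnb1 counts was -2.02 ± 0.277 in KO and -1.99 ± 0.294 in WT (SD, n = 3 each), a difference of -0.034 (exact two-sided permutation p = 0.9, 0.9 adjusted over 3 ratios).

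Since both proteins descend from a common ancestor, shared fragments could blur their counts, so their coding sequences were compared. The longest run that they share is 20 bases, shorter than the 25 to 34 nt of the fragments kept. It lies in coding exon 6 of 14 of Ctnnb1 (chr9:120952906-120952957, plus strand, with 16 flanking bases on each side) and coding exon 5 of 12 of Jup (chr11:100380590-100380641, minus strand). Both are read 5′ to 3′ from GRCm38, with the shared run in capitals and the flanks, which match in part, in lower case:
Ctnnb1: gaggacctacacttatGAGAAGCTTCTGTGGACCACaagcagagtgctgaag
Jup: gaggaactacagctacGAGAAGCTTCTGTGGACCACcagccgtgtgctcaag
A perfectly matched fragment of the kept lengths could therefore belong to only one of these coding sequences. Of windows of 28 bases in the longest coding sequence, 0% of Ctnnb1 and 0.498% of Jup also occur in a GENCODE transcript of another gene.

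α-catenin was next in level to β-catenin. Ctnna1 (ENSMUSG00000037815, plus strand of chromosome 18, 35118859 to 35254779) had 555, 358 and 545 CPM in KO and 583, 625 and 493 CPM in WT. KO replicate 2 was the lowest library and the others overlapped. The log2 fold change was -0.22 (SE 0.23, 95% interval -0.71 to 0.27, edgeR adjusted p = 1.0), and -0.035 without KO replicate 2. The log2 ratio of Ctnna1 to Ctnnb1 counts was -1.41 ± 0.346 in KO and -1.50 ± 0.245 in WT (SD, n = 3 each), a difference of 0.090 (exact two-sided permutation p = 0.8, 0.9 adjusted over 3 ratios). For both ratios to β-catenin the difference was smaller than the spread between libraries.

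p120-catenin had far fewer counts than its partners. Ctnnd1 (ENSMUSG00000034101, minus strand of chromosome 2, 84600071 to 84650765) had counts of 34, 39 and 0 in KO and 34, 104 and 143 in WT, or 13.3, 16.7 and 0 CPM in KO and 20.7, 52.0 and 82.7 CPM in WT. Every KO library was below every WT library, but all 3 KO counts were under the modal counts of their libraries. The log2 fold change of -2.37 had an interval from -5.34 to 0.59 (SE 1.39, edgeR adjusted p = 0.980).

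The low count of Ctnnd1 stands beside a feature of the annotation. GENCODE M21 lists a protein-coding readthrough gene, Gm28635 (ENSMUSG00000101645, minus strand of chromosome 2, 84601439 to 84678041), whose exons cover 97.0% of the coding bases of Ctnnd1 and 61.2% of its exonic bases. The deposited table has a row for Gm28635, and it is at 0 in all 6 libraries. The sources used here do not state how the counting treated fragments that fall in exons of both genes, and its part in the count of Ctnnd1 was not tested. The coding bases that only Ctnnd1 has are a single block of 87 in coding exon 18 of 19 (chr2:84603188-84603274, minus strand, GRCm38), shown 5′ to 3′ because fragments from this block alone fall in no exon of Gm28635 within the longest coding sequence:
Ctnnd1: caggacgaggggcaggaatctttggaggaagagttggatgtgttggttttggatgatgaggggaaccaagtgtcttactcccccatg
None of the other 9 genes has coding bases in exons of another gene on its own strand. On the opposite strand only Ctnnb1, as above, and Dsp, with 2.36% of its coding bases, do.

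The desmosomal plaque genes Dsp and Pkp2 were sparsely covered, unlike Jup. Dsp (ENSMUSG00000054889, plus strand of chromosome 13, 38151294 to 38198577), with by far the longest coding sequence of the 10 at 8649 bases, had 45.6, 74.5 and 42.8 CPM in KO and 86.9, 63.5 and 11.6 CPM in WT. WT held both the highest and the lowest library. The means were 54.3 ± 17.5 CPM in KO and 54.0 ± 38.6 CPM in WT (SD, n = 3 each), and the log2 fold change was 0.0082 (SE 0.71, edgeR adjusted p = 1.0). Its sign turned without KO replicate 2 (-0.28), without WT replicate 3 (-0.47) and on molecule equivalents (-0.41).

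Pkp2 (ENSMUSG00000041957, plus strand of chromosome 16, 16213318 to 16272712) had counts of 4, 83 and 1 in KO and 46, 1 and 45 in WT. KO replicate 2 held nearly all of the KO count and WT replicate 2 nearly none of the WT count, so the groups overlapped. Its mean was 1.03 molecule equivalents, and the log2 fold change of -0.54 had an interval of -5.07 to 3.99 (SE 2.12, edgeR adjusted p = 1.0). Without KO replicate 2 it was -4.21 and without KO replicate 3 it was 0.024, neither of them called.

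Of the tight junction proteins ZO-1 was regularly measured. Tjp1 (ENSMUSG00000030516, minus strand of chromosome 7, 65296165 to 65527781) had 275, 386 and 393 CPM in KO and 421, 373 and 291 CPM in WT, and the groups overlapped over nearly their whole range. The log2 fold change was -0.041 (SE 0.25, 95% interval -0.57 to 0.49, edgeR adjusted p = 1.0). Its sign turned with library totals in place of TMM (0.070), without KO replicate 1 (0.12) and without WT replicate 1 (0.083). Ocln (ENSMUSG00000021638, minus strand of chromosome 13, 100496507 to 100552718) had a count of 0 in every library. That allows up to 0.931 to 1.28 CPM in the KO libraries and 1.499 to 1.82 CPM in the WT libraries, counting error only. This bound also takes each count as a separate molecule and may be too low, as for Cdh1.

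**Figure D2:**
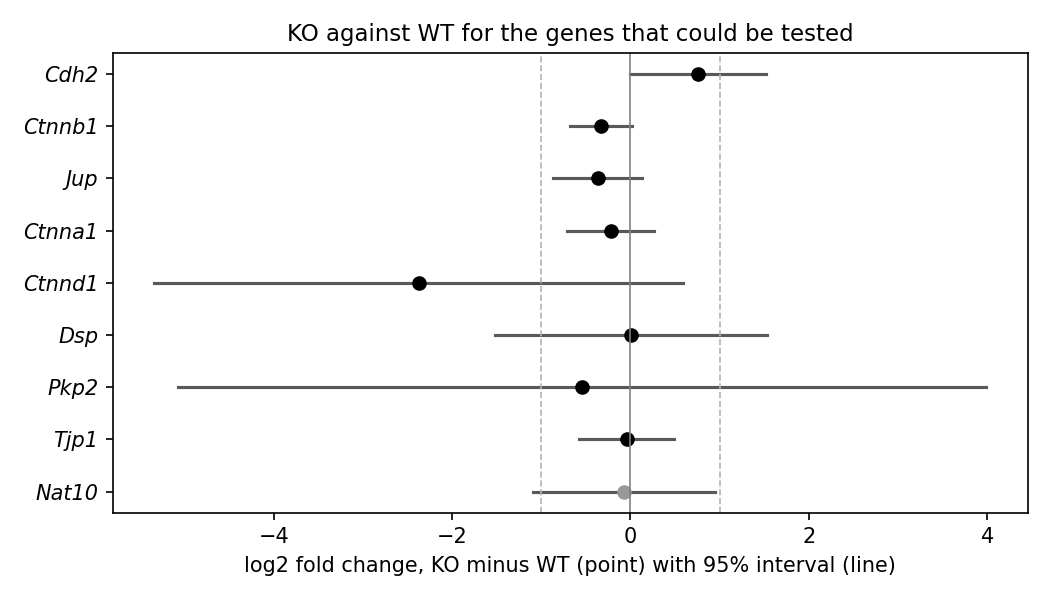
Log2 fold change, KO minus WT (point), with its 95% interval (line) for the 8 tested genes and Nat10 (grey), with dashed lines at 2-fold. The intervals of Ctnnb1, Jup, Ctnna1 and Tjp1 lie within the dashed lines, and those of Ctnnd1 (-5.34 to 0.59) and Pkp2 (-5.07 to 3.99) are the widest.

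Levels of different genes were compared per length, as CPM per kb of the longest coding sequence averaged over all 6 libraries. Ctnnb1 came first at 612 ± 93.1 (SD, n = 6), above 98.5% of 8087 tested coding genes. Ctnna1 at 194 ± 34.3 and Jup at 160.05 ± 28.9 followed, and their ranges over libraries overlapped. Neither range reached that of Ctnnb1. Tjp1 at 68.1 ± 11.3 and Cdh2 at 64.7 ± 28.8 overlapped each other and lay below Jup in every library. Ctnnd1 (10.6), Pkp2 (6.42), Dsp (6.26), Cdh1 (2.35) and Ocln (0) formed the low end, where neighbours in the order overlapped. The density of Ctnnd1 divides by all its 2901 coding bases, 97.0% of which lie in exons of Gm28635. Its place may therefore depend on how fragments of both genes were counted, which was not tested. The order within overlapping genes differed between the groups: Cdh2 had 81.4 and Tjp1 67.1 in the KO means, against 48.1 and 69.1 in the WT means. Dsp, Pkp2 and Ctnnd1 had 6.28, 5.23 and 3.44 in the KO means, against 6.24, 7.62 and 17.8 in the WT means. Within the cadherin complex, p120-catenin and E-cadherin left aside, the footprint density was thus highest for β-catenin, then α-catenin and plakoglobin, then N-cadherin. The KO means were 542, 179, 139.8 and 81.4 CPM per kb. The WT means, in the same order, were 682, 209, 180.3 and 48.1 CPM per kb.

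**Figure D3:**
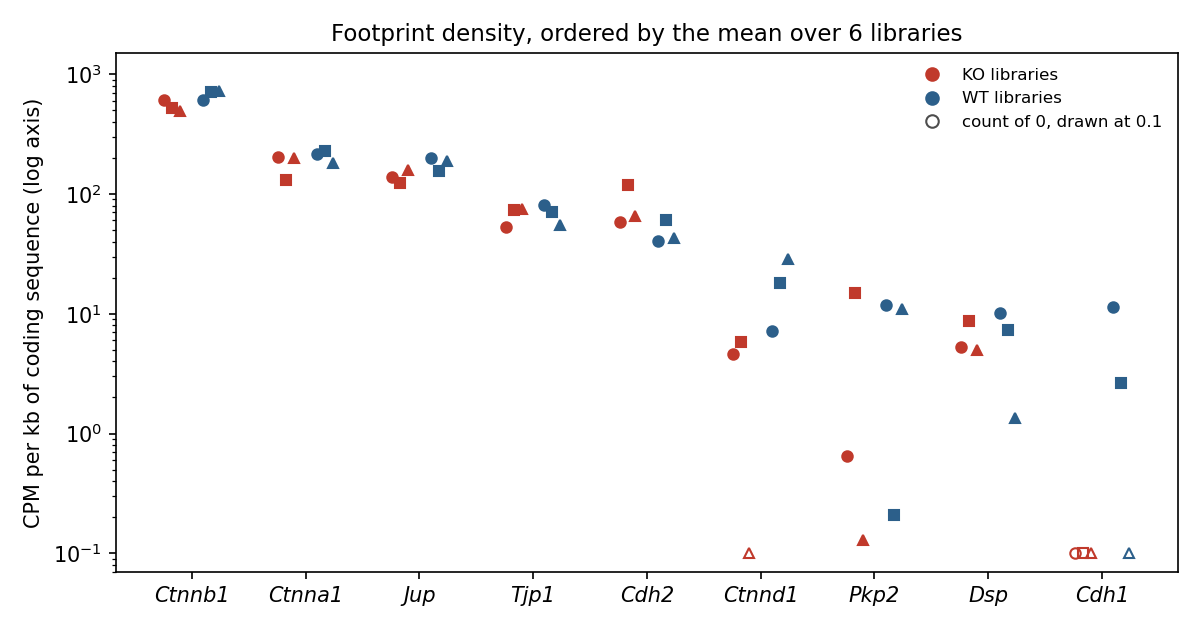
Footprints per kb of coding sequence (log axis) of 9 genes, ordered by their mean over 6 libraries, with KO libraries in red and WT libraries in blue (circle, square and triangle for replicates 1, 2 and 3). Open symbols at 0.1 stand for a count of 0, and Ocln, at 0 in all libraries, is left out.

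The wider junction and β-catenin machinery was read from 9 lists of 118 distinct genes, of which 77 had a count and 61 could be tested. No gene of the 61 was called by edgeR (0.402% of all genes tested), 5 had an unadjusted p under 0.05 (6.49% of all genes tested), and the median log2 fold change was 0.0058. Of the 61, 9 had every KO library above every WT library and 7 every KO library below, patterns of 6.94% and 7.93% of all genes tested. By DESeq2 2 of the 66 given an adjusted p were called, Esam and Cldn15, both lower in KO, beside 2.5% of all genes, and by limma-voom 0.

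Of 23 other adherens junction genes 15 had a count and 10 were tested, with 5 positive, 0 called and a median of 0.059. Beside Cdh3 the list held Vcl, the actin-binding vinculin that α-catenin recruits, at 612 ± 8.66 CPM in KO and 451 ± 122 CPM in WT (SD, n = 3 each, log2 fold change 0.44, SE 0.23, edgeR adjusted p = 0.882). Nectin1, an immunoglobulin-like adhesion receptor, had counts of 45, 64 and 38 in KO and 18, 0 and 0 in WT. Plekha7, which binds p120-catenin, had 38, 0 and 0 in KO and 24, 66 and 0 in WT. The relatives of the catenins Ctnna2 and Ctnnd2 were at 0 throughout, and so were Cdh4, Cdh6, Cdh11 and Cdh15.

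Of 11 other desmosome genes 5 were tested, with 3 positive, 0 called and a median of 0.24. Periplakin, the product of Ppl and a relative of desmoplakin, was the most abundant at 172 ± 27.8 CPM in KO and 293 ± 54.9 CPM in WT (SD, n = 3 each), with every KO library below every WT library. Its log2 fold change was -0.77 (SE 0.29, 95% interval -1.38 to -0.16, edgeR unadjusted p = 0.0174, adjusted p = 0.543). The desmosomal cadherins differed in cover: Dsg2 stood at 33.9 ± 8.86 CPM in KO and 28.8 ± 18.6 CPM in WT, Dsc2 had counts of 17, 83 and 137 in KO and 16, 4 and 0 in WT, and Dsg1a, Dsg3, Dsc1 and Dsc3 were at 0 in every library. Perp, a tetraspan desmosome protein, stood at 57.6 ± 20.05 CPM in KO and 36.2 ± 9.34 CPM in WT.

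Of 30 other tight junction genes 19 had a count and 18 were tested, with 8 positive, 0 called and a median of -0.078, also with Esam and Cldn15 at their bounds. The adhesion molecule Esam had counts of 0, 0 and 2 in KO and 65, 163 and 75 in WT (edgeR unadjusted p = 0.000439, adjusted p = 0.0693). Its KO counts sum to 2, less than a modal count, so no fold is given. Esam was called lower by DESeq2 (adjusted p = 6.6e-06), without a count filter (0.0120) and on molecule equivalents (0.0322). The remaining 12 alternatives did not call it, with adjusted p of 0.0676 to 0.871. The protein is best known from endothelium. The endothelial markers Pecam1, Kdr, Vwf and Emcn were at 0 in every WT library, with Tek at 0, 12 and 0. In KO, Pecam1 and Kdr each had counts of 0, 0 and 2, Tek and Vwf each had 0, 0 and 1, and Emcn was at 0. Such zeros are a weak bound, as for Cdh1, and which cells gave the Esam counts was not tested. Cldn15, the claudin of this list with the smallest p, had 0, 0 and 0 in KO and 30, 27 and 47 in WT (edgeR adjusted p = 0.531), and DESeq2 called it (adjusted p = 0.0276). Cldn1, Cldn2, Cldn4, Cldn5, Cldn6 and Cldn7 were at 0 in all 6 libraries. Among well-covered genes of the list, F11r, the adhesion molecule JAM-A, stood at 455 ± 117 CPM in KO and 447 ± 30.0 CPM in WT (log2 fold change 0.026, SE 0.24), a gene chosen after its values were seen. Prkci, an atypical protein kinase C of the polarity complex, stood at 197 ± 28.5 CPM in KO and 134 ± 30.1 CPM in WT (0.56, SE 0.33, edgeR adjusted p = 0.980), and Mpp5, a polarity scaffold, at 75.8 ± 51.0 CPM in KO and 40.2 ± 8.86 CPM in WT.

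Of 9 gap junction genes 3 were tested and 0 called, with a median of 0.64. Gja1, the connexin of the most widely found gap junctions, stood at 102 ± 16.6 CPM in KO and 65.3 ± 13.8 CPM in WT (SD, n = 3 each; log2 fold change 0.64, SE 0.45, edgeR adjusted p = 1.0) and had every KO library above every WT library. The channel gene Panx1 had counts of 69, 53 and 88 in KO and 0, 40 and 33 in WT.

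The complex that marks β-catenin for destruction had 8 of 10 genes tested, with 5 positive, 0 called and a median of 0.17. Gsk3b, a kinase that phosphorylates β-catenin, stood at 73.9 ± 9.94 CPM in KO and 36.9 ± 21.7 CPM in WT (SD, n = 3 each, log2 fold change 1.003, SE 0.62). Btrc, the ubiquitin ligase subunit that recognises phosphorylated β-catenin, stood at 35.9 ± 1.6 CPM in KO and 71.6 ± 32.8 CPM in WT (-0.99, SE 0.61). Csnk1a1, the casein kinase that primes β-catenin, stood at 158 ± 37.0 CPM in KO and 130.36 ± 12.1 CPM in WT (0.28, SE 0.34), and Gsk3a, the relative of Gsk3b, at 16.3 ± 2.26 CPM in KO and 31.7 ± 7.11 CPM in WT (-0.96, SE 1.26). The adjusted p of edgeR was 1.0 for each of these 4 genes.

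Nuclear partners and targets of β-catenin were mostly too low to read. Of 8 partners 3 were tested and 0 called (median 0.0058), and the factors Tcf7 and Lef1 were at 0 in every library. Pygo2, a co-activator, had counts of 54, 104 and 57 in KO and 4, 24 and 18 in WT, Tcf7l2, a DNA-binding partner, had 47, 47 and 0 in KO and 42, 5 and 32 in WT, and Bcl9l, which links β-catenin to Pygo proteins, had 29, 50 and 132 in KO and 67, 25 and 35 in WT. Of 15 Wnt target genes 3 were tested and 0 called (median -0.47). Axin2, the feedback target most used as a readout, had 1 count in WT replicate 1 and 0 elsewhere. Ccnd1, cyclin D1, which other pathways also induce, stood at 146 ± 83.2 CPM in KO and 296 ± 41.2 CPM in WT (SD, n = 3 each), with every KO library below every WT library (log2 fold change -1.02, SE 0.39, edgeR unadjusted p = 0.0187, adjusted p = 0.547). Myc stood at 114 ± 31.8 CPM in KO and 158 ± 26.6 CPM in WT (-0.47, SE 0.36), and Znrf3, a ligase that removes Wnt receptors, had counts of 1, 17 and 70 in KO and 43, 0 and 0 in WT.

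Repressors of Cdh1 transcription were present at low level. Zeb2 had counts of 118, 160 and 130 in KO and 59, 63 and 34 in WT, with every KO library above every WT library (51.6 ± 14.9 CPM in KO and 29.0 ± 8.39 CPM in WT, log2 fold change 0.83, SE 0.76, edgeR adjusted p = 1.0). Zeb1 stood at 25.6 ± 5.89 CPM in KO and 19.5 ± 3.90 CPM in WT (0.39, SE 1.33). Snai2 had counts of 23, 0 and 2 in KO and 13, 12 and 0 in WT. Of the list of 7 genes these 3 were tested, 0 were called, and Snai3 and Twist2 were at 0.

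All 8 genes fixed for cadherin turnover were tested and 0 called, with 3 positive and a median of -0.11. Adam10, the protease that sheds cadherin ectodomains, stood at 132 ± 8.83 CPM in KO and 184 ± 46.6 CPM in WT (SD, n = 3 each, log2 fold change -0.48, SE 0.33, edgeR adjusted p = 1.0). Cltc, the clathrin heavy chain of endocytosis, was tightly measured at 1871 ± 101 CPM in KO and 2011 ± 118 CPM in WT, and its 95% interval ran from -0.42 to 0.21. Rab11a, a GTPase of recycling endosomes, stood at 89.0 ± 52.2 CPM in KO and 51.9 ± 16.5 CPM in WT.

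**Figure D4:**
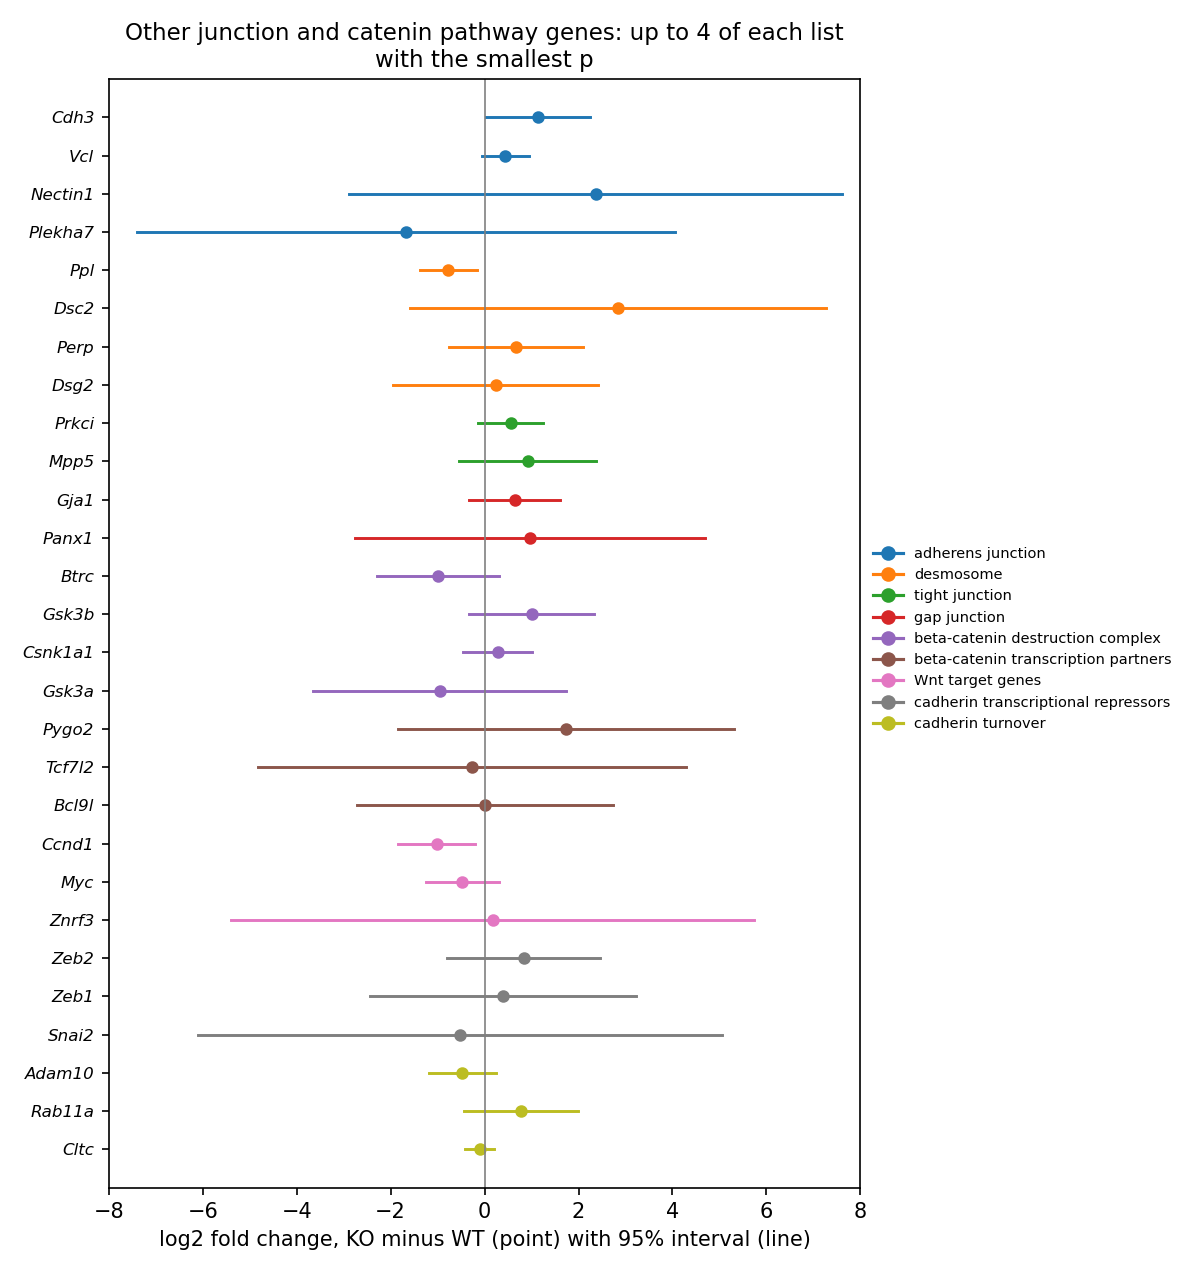
Log2 fold change, KO minus WT (point), with its 95% interval (line) for up to 4 genes of each of the 9 lists with the smallest p, coloured by list, 28 genes in all. Esam and Cldn15, with at most 3 counts over the KO libraries, are left out, and Cdh3, Ppl and Ccnd1 are those drawn whose interval excludes 0.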

How the data were processed

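Ribosome-protected fragments were counted in 3 KO and 3 WT libraries. Per the labels' protocols, Cutadapt trimmed adapters, fragments of 25 to 34 nt were kept, Bowtie took out rRNA and tRNA, and HISAT2 and Bowtie placed what was left on the GRCm38 genome and on the transcriptome. FeatureCounts and DESeq2 are listed in the submitters' processing notes without version or role. The sources used here do not state the annotation, the strand setting, or the handling of duplicate, multiply matched and gene-overlapping fragments. No matched RNA-seq was used here, so mRNA level and translation were measured together.

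The authors deposited whole-number counts per Ensembl gene, not normalized, and 53360 of 53465 identifiers matched GENCODE M21. Genes were tested with edgeR 4.0.16 (robust quasi-likelihood test, TMM, filterByExpr by group, R 4.3.3) with Benjamini-Hochberg adjustment over all 8200 genes tested and a threshold of 0.05. Standard errors were the fold change over the root of the F statistic, with intervals at 95%. Alternatives were DESeq2 1.42.0, limma-voom (limma 3.58.1), other scalings, count filters (none, or 50 counts in 3 libraries), removal of mitochondrial and the 10 most abundant genes, molecule equivalents (modal count from a kernel of bandwidth 3 over counts of 8 to 150, rounded), a replicate block, and omission of single libraries. Ratios used an exact permutation test over 20 assignments, whose p cannot go below 0.1, so it could not reach the threshold of 0.05. Floors are 3 counts per library, with each count taken as a separate molecule. The fit was tested on simulated data. Tables and plots used Python 3.11.15.

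The genes and lists were chosen with earlier results of these data known. Named genes were Nat10, the 10 genes, any called gene of a list and up to 4 tested genes of each list with the smallest p, besides tested markers; others are marked or were named as at 0 or untested, and some genes of the rule are not reported here.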

Additional observations from a re-analysis of the deposited data

How the results depend on the processing

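The 15 alternatives, fits without single libraries included, tested 6 to 9 of the 10 genes and called 0. Ocln was tested in none of them and Cdh1 in 6. The count over all genes was 33, and 234 with DESeq2, 91 with no count filter, 114 on molecule equivalents and 6 to 29 without single libraries, lowest without WT replicate 2 or WT replicate 3. With library totals the split was 27 higher and 16 lower, against 15 higher and 18 lower, and the median of all genes tested was 0.093, against -0.016. Signs turned for Dsp on molecule equivalents (-0.41), for Tjp1 with library totals (0.070) and for Nat10 with limma-voom (0.019), library totals (0.026) and molecule equivalents (0.077); the cause was not tested. Without single libraries log2 fold changes ran from -0.47 to 0.53 for Dsp, -0.18 to 0.12 for Tjp1, -4.21 to 0.024 for Pkp2, -0.35 to 0.35 for Nat10, 0.38 to 0.96 for Cdh2, -0.41 to -0.27 for Ctnnb1, -0.32 to -0.035 for Ctnna1, -0.47 to -0.27 for Jup and -2.97 to -1.79 for Ctnnd1. The ratio of Jup to Ctnnb1 ran from -0.19 to 0.12, that of Ctnna1 to Ctnnb1 from -0.069 to 0.27 and that of Cdh1 to Cdh2, whose value depends on the 0.5 added, from -6.96 to -3.55.

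List medians moved by more than the spread between libraries in some settings, and the cause was not tested. With library totals the 10 genes stood at -0.17, with the filter of 50 counts at -0.11 and on molecule equivalents at -0.41. Molecule equivalents gave -0.21 for the destruction complex, -0.89 for Wnt targets and -0.26 for cadherin turnover. Limma-voom gave 0.33 for adherens junctions and -0.28 for the destruction complex, and no count filter gave 0.45 and -0.17. The filter of 50 counts, with fewer genes tested, gave 0.89 for nuclear partners and 0.85 for repressors. Without single libraries medians ran from -0.32 to -0.14 for the 10 genes, -0.091 to 0.39 for adherens junctions, -0.20 to 0.63 for desmosomes, -0.11 to 0.13 for tight junctions, 0.39 to 0.82 for gap junctions, -0.38 to 0.24 for the destruction complex, -0.33 to 0.59 for nuclear partners, -0.70 to 0.0034 for Wnt targets, 0.26 to 0.57 for repressors and -0.17 to 0.045 for turnover.

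Deviations from the group means showed no pairing by replicate number (correlations of same-numbered deviations -0.017, -0.0026 and -0.0067). No library correlated best with its own number. Whether same-numbered libraries shared a culture or batch was not tested. The replicate block called 38 genes, 0 of the 10 among them, and moved the median of the destruction complex to -0.42. Readings of Cdh1, Ctnnd1, Pkp2, Dsp and Ocln rest on means of at most 4.16 molecule equivalents. Why these genes were low was not tested.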
